A study of Mus musculus with 6 samples.

Results

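The genes followed here are 9 mouse genes of glutathione metabolism and of the NRF2 antioxidant response, measured in Lhx2 cells with and without TGF-β1. They were taken by symbol, as every array probe whose RefSeq accession belongs to Gclc, Gclm, Osgin1, Slc7a11, Gsr, Hmox1, Nqo1, Srxn1 or Gstm1. All 9 were measured, out of 29164 genes and transcripts tested, and their 17 probes were well above background on all 6 arrays. The set was chosen by how these genes differed between TGF-β1-treated and untreated cells in these same arrays, so their changes with treatment are given as a description and no test of them is offered as support.

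Lhx2 cells are a mouse blood progenitor line that carries the LIM-homeobox factor Lhx2 and grows on stem cell factor and interleukin 6. The growth medium was IMDM with 2-mercaptoethanol, 5% fetal calf serum, 100 ng/ml mouse SCF and 10 ng/ml human IL-6. All cultures, the controls included, were deprived of serum overnight in 0.5% bovine serum albumin. They were then left untreated (3 arrays) or given 10 ng/ml TGF-β1 (3 arrays) and collected at 2 h. The RNA came from 3 independent harvests. The replicate number in the labels is read here as the harvest, and an untreated and a treated array with the same number are called a pair. Each array holds Cy3-labelled RNA of a whole culture, in which fewer cells of a type and less RNA per cell cannot be told apart. The controls had no TGF-β1 added, and no arm with an inhibitor of TGF-β signalling or of NRF2 enters the comparison. The 2-mercaptoethanol, a thiol that alters how cultured cells take up cystine, was part of the growth medium of both groups.

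Glutathione is the main small thiol of the cell. Glutamate-cysteine ligase, built from a catalytic subunit (Gclc) and a modifier subunit (Gclm), joins glutamate to cysteine in the step that limits its synthesis, and glutathione synthetase (Gss) adds glycine. Cysteine for this step is brought in as cystine by the xCT transporter (Slc7a11 with its heavy chain Slc3a2). Oxidised glutathione is reduced again by glutathione reductase (Gsr), and glutathione transferases such as Gstm1 couple it to reactive compounds. NRF2 (Nfe2l2), held in check by Keap1 and opposed at its sites by Bach1, activates many of these genes through antioxidant response elements, along with Hmox1, Nqo1, Srxn1 and Osgin1.

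On the arrays, the 75th percentile of the processed signal was between 794.2 and 1031, 82.8% to 90.3% of probes were well above background. The small number of arrays, 3 a group, limits the precision. The arrays lay on 2 slides, with untreated arrays 1 and 3 and treated array 1 on slide 1 and the other 3 arrays on slide 2. Replicate 3 is thus on the untreated side of slide 1 and on the treated side of slide 2. A difference within a slide, as given below, therefore also carries that between harvest 3 and the other harvest of the slide. Of the blood progenitor markers Kit, Cd34, Ptprc, Gata2, Myb, Spi1, Lhx2 and Flt3, 8 of 8 were well above background on all arrays. The log2 of their summed signal was 6.91 to 7.04 in untreated and 6.92 to 7.13 in treated cells. This sum hides shifts of single markers in both directions, given on the scale defined below. In every pair Cd34 and Gata2 were higher (changes of 0.39 and 0.76) and Myb, Kit and Ptprc lower (-0.62, -0.46 and -0.39). Spi1, Lhx2 and Flt3 were mixed, and Lhx2 was dim, with a mean level of -4.27. In the treatment test 0 of the 8 passed. Levels below are log2 of the processed signal relative to the 75th percentile of the array, so that 0 is the signal at that percentile. A change is the mean of the treated arrays minus the mean of the untreated arrays on that scale, with a moderated standard error (SE) from limma and n = 3 arrays per group. Because probes differ in how they bind, no gene's level is ranked against another gene's.

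The subunits of glutamate-cysteine ligase were both higher with TGF-β1, in each of the 3 pairs and without overlap between the groups. Gclc had log2 levels of 1.70, 1.51 and 1.72 in untreated replicates 1, 2 and 3 and of 3.44, 3.17 and 3.18 in the treated ones. Its processed signal was 2932, 2861 and 2623 without TGF-β1 and 9580, 9063 and 9374 with it. Every treated array lay well above every untreated array, and the values within a group were close together. The difference was 1.62 (SE 0.14, 95% interval 1.27 to 1.97), a 3.07-fold higher signal (interval 2.42 to 3.91), and the pairs gave 3.34-fold, 3.16-fold and 2.75-fold. Gclm, which raises the activity of the catalytic subunit, had levels of 0.62, 0.30 and 0.61 without TGF-β1 and of 2.21, 1.76 and 1.96 with it. The lowest of both its groups was replicate 2. Its difference was 1.46 (SE 0.17, interval 1.04 to 1.88), or 2.76-fold (interval 2.06 to 3.69), with pair values of 1.59, 1.46 and 1.35 on the log2 scale. In both genes the pair of replicate 3, whose arrays lie on different slides, had the smallest difference. Within slide 1 the difference was 1.73 for Gclc and 1.59 for Gclm, and within slide 2 it was 1.66 and 1.56. Each subunit is read by a single probe on this array.

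**Figure D1:**
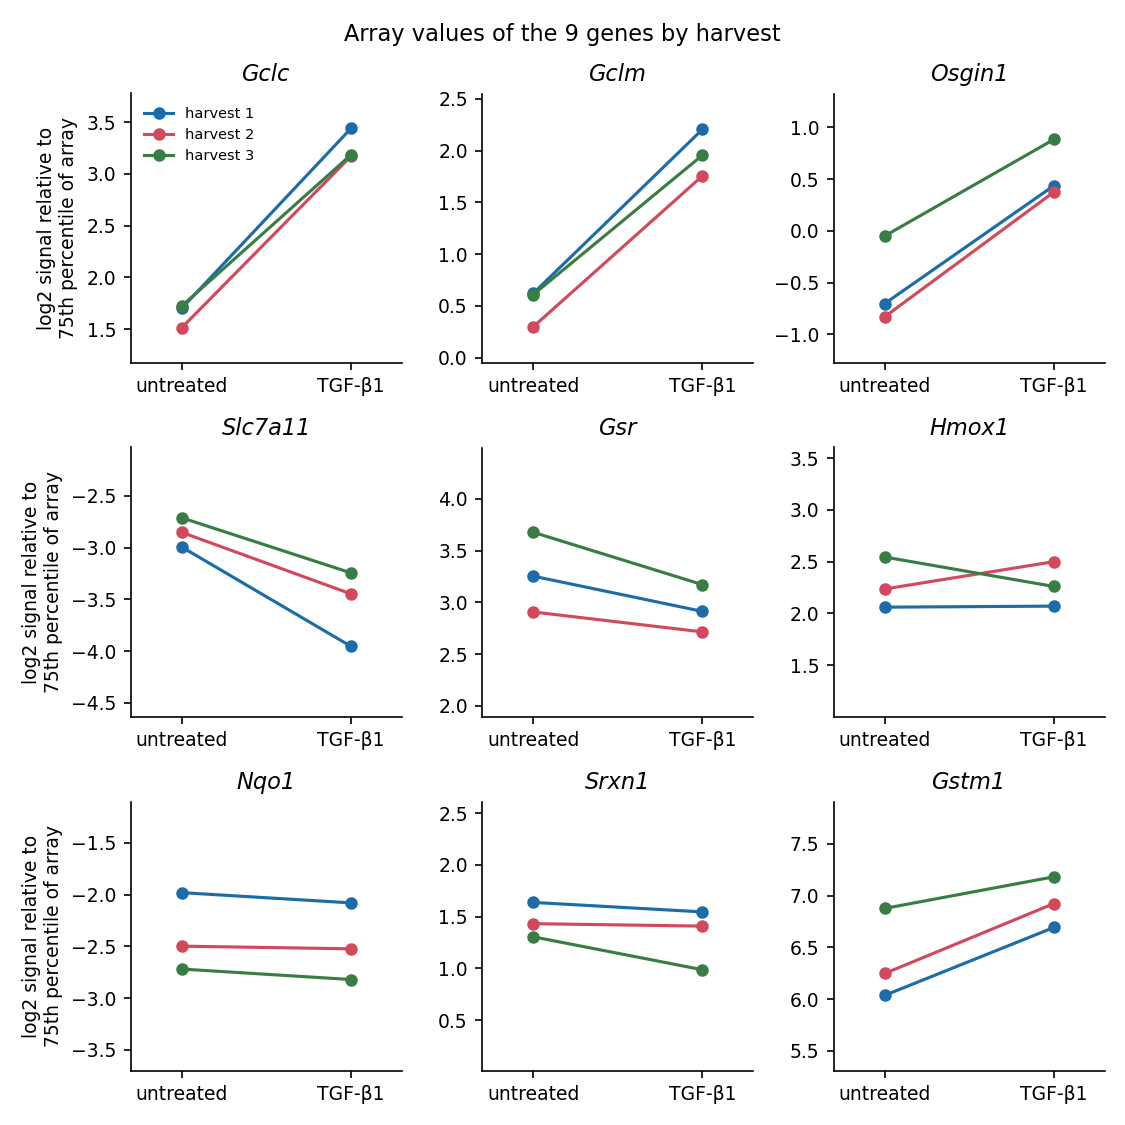
Log2 signal relative to the 75th percentile of the array (vertical axis; every panel spans the same number of log2 units) for each of the 9 genes in untreated and TGF-β1-treated cells, with a line joining the arrays of each harvest. Gclc, Gclm and Osgin1 are higher and Slc7a11 is lower in the treated array of all 3 harvests without overlap of the groups, whereas the lines of Hmox1 run in both directions.

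Osgin1, an oxidative stress-induced growth inhibitor and a known NRF2 target, had levels of -0.70, -0.83 and -0.05 in untreated cells and of 0.44, 0.38 and 0.88 in treated cells. The groups did not overlap, although replicate 3 was the highest array in each. The difference was 1.09 (SE 0.25, interval 0.48 to 1.70), a 2.13-fold higher signal, with pair values of 1.14, 1.21 and 0.93. A second Osgin1 probe gave 0.85, with pair values of 0.78, 0.89 and 0.88. Within slide 1 the difference was 0.81 and within slide 2 it was 1.46, and the array of replicate 3 is an untreated array on the first slide and a treated array on the second.

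RefSeq promoter windows (GRCm38.p6), which run from 250 bases before to 50 bases after the transcription start, were matched by symbol for 6 of the 9 genes (not Gclc, Gsr and Hmox1), in 7 windows because Gstm1 has a pair of starts. They are shown for genes whose windows hold letters that match sites of NRF2 or of AP-1, factors whose sites overlap. These are Gclm and Osgin1, which were higher with TGF-β1, and Srxn1, which was not. Binding to these windows was not measured. The stretches lie on the plus strand at chr3:122245307-122245556 (Gclm), chr8:119436897-119437146 (Osgin1) and chr2:152105404-152105523 (Srxn1) and end at the last base before the start. Capitals mark the antioxidant response element core TGACNNNGC in Gclm, which is read on the opposite strand, and the AP-1 site TGANTCA with its extension TGANTCAGC in Osgin1 (extension on the opposite strand) and Srxn1.
Gclm: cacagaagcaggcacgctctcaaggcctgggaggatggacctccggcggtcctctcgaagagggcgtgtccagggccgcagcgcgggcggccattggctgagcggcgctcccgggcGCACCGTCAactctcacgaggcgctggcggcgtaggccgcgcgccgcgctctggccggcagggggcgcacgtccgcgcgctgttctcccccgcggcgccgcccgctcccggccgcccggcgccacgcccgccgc
Osgin1: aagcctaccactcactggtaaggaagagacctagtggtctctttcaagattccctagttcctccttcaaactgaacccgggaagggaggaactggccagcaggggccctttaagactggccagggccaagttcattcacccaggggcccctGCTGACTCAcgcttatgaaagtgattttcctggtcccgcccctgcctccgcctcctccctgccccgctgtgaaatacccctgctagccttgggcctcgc
Srxn1: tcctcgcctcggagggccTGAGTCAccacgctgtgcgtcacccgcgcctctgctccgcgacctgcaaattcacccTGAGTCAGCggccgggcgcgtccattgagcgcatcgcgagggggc
Counted so that -1 is the last base before the start, the Gclm core begins at -134, the Osgin1 AP-1 site at -97 and the Srxn1 AP-1 sites at -102 and -45. On both strands, TGACNNNGC was found in 12.4% of all 32851 windows of this length, TGANTCA in 7.81%, the SMAD element CAGACA in 21% and TGANTCAGC in 1.19%. Among the 7 windows of the genes followed here, 2 held TGACNNNGC (Gclm, and Srxn1 just after its start), 2 held TGANTCA and TGANTCAGC (Osgin1 and Srxn1), and 1, of Gstm1, held CAGACA. TGANTCAGC contains TGANTCA and was searched after the windows had been seen. No match to any of them was found in the windows of Slc7a11 and Nqo1 or in the other window of Gstm1. The extended AP-1 letters of Osgin1 and Srxn1 were identical, in opposite orientation, and the differences of these genes with TGF-β1 were 1.09 and -0.14.

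Slc7a11, the cystine carrier that supplies the ligase, had lower values in the treated array of every pair. Its levels were -2.99, -2.85 and -2.71 in untreated and -3.95, -3.45 and -3.24 in treated cells. The processed signal was 113.1, 138.7 and 121.3 against 56.97, 92.22 and 108.8, so this transcript was read at a dim spot although it was above background throughout. The treated array of replicate 1 was the lowest, and the groups did not overlap. The difference was -0.70 (SE 0.21, interval -1.20 to -0.19), a ratio of 0.617, and the pair values were -0.96, -0.60 and -0.53. The other 2 Slc7a11 probes gave -0.41 and -0.60, with a negative value in every pair. Within slide 1 the difference was -1.10 and within slide 2 it was -0.49. The partner chain Slc3a2 had a difference of -0.06 (SE 0.18; limma with Benjamini-Hochberg adjustment, adjusted p = 1), with levels between 3.66 and 4.05 in untreated and between 3.68 and 4.09 in treated cells.

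Gsr, which regenerates reduced glutathione, had levels of 3.25, 2.91 and 3.68 without and of 2.91, 2.72 and 3.17 with TGF-β1. The groups overlapped, since untreated replicate 2 lay below treated replicate 3. The difference was -0.35 (SE 0.23, interval -0.90 to 0.21), with pair values of -0.34, -0.19 and -0.51. Its other probes gave -0.81 and -0.26. Within slide 2 the difference was 0.04, against -0.55 within slide 1. Gstm1, which couples glutathione to electrophiles, had levels of 6.04, 6.25 and 6.88 in untreated and of 6.69, 6.92 and 7.18 in treated cells. Untreated replicate 3 lay above treated replicate 1, so these groups overlapped too, although each pair was higher with TGF-β1 (0.66, 0.68 and 0.31). The difference was 0.55 (SE 0.25, interval -0.06 to 1.15), and the second probe gave 0.80. Within slide 1 it was 0.24 and within slide 2 it was 0.80. In the slide values of Gsr and Gstm1 too, replicate 3 is untreated on slide 1 and treated on slide 2. Gstm1 belongs to a family of near-identical genes, and the arrays may not tell its transcript from those of its relatives. With the replicate block the interval was -0.65 to -0.04 for Gsr and 0.21 to 0.88 for Gstm1, so that neither then included 0. These intervals are not adjusted for the number of genes, and neither gene passed with the block (limma adjusted p = 0.392 and 0.222). Because the genes were chosen on this contrast, nothing is read from the intervals. The family member Gstm3, named after its values were seen, had pair values of 0.77, 0.80 and 0.36.

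The classical NRF2 targets Hmox1, Nqo1 and Srxn1 had changes near 0. Hmox1, the heme-degrading oxygenase, had levels of 2.06, 2.24 and 2.54 in untreated and of 2.07, 2.50 and 2.26 in treated cells. The groups overlapped almost completely, and the pair values ran in both directions (0.01, 0.26 and -0.28). Its mean difference was -0.00 (SE 0.19, interval -0.45 to 0.45), and its sign changed under 8 of 16 alternative settings. Nqo1, a quinone reductase, had levels of -1.98, -2.50 and -2.72 against -2.08, -2.52 and -2.82. Here the arrays of a pair lay close together and the harvests lay apart. The difference was -0.08 (SE 0.27, interval -0.71 to 0.56), with pair values of -0.10, -0.03 and -0.10, and it was positive under 3 of the 16 settings. Srxn1, which repairs over-oxidised peroxiredoxins, had levels of 1.64, 1.43 and 1.31 against 1.55, 1.41 and 0.99. Treated replicate 3 was the lowest array and the groups otherwise overlapped. The difference was -0.14 (SE 0.19, interval -0.60 to 0.31), negative in all but 1 setting, which left out that array and gave 0.02. Its other probes gave -0.04, with pair values of -0.20, -0.05 and 0.13, and -0.29, with a negative value in every pair. Within slides 1 and 2 the differences were -0.23 and 0.14 for Hmox1, 0.27 and -0.17 for Nqo1 and 0.07 and -0.23 for Srxn1. The slide values thus had opposite signs in all 3 genes. Replicate 3 is untreated on slide 1 and treated on slide 2, so these values also carry the difference between harvests. The part of the slide in them was not tested. With the replicate block the intervals were narrower, -0.38 to 0.37 for Hmox1, -0.34 to 0.19 for Nqo1 and -0.45 to 0.16 for Srxn1.

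**Figure D2:**
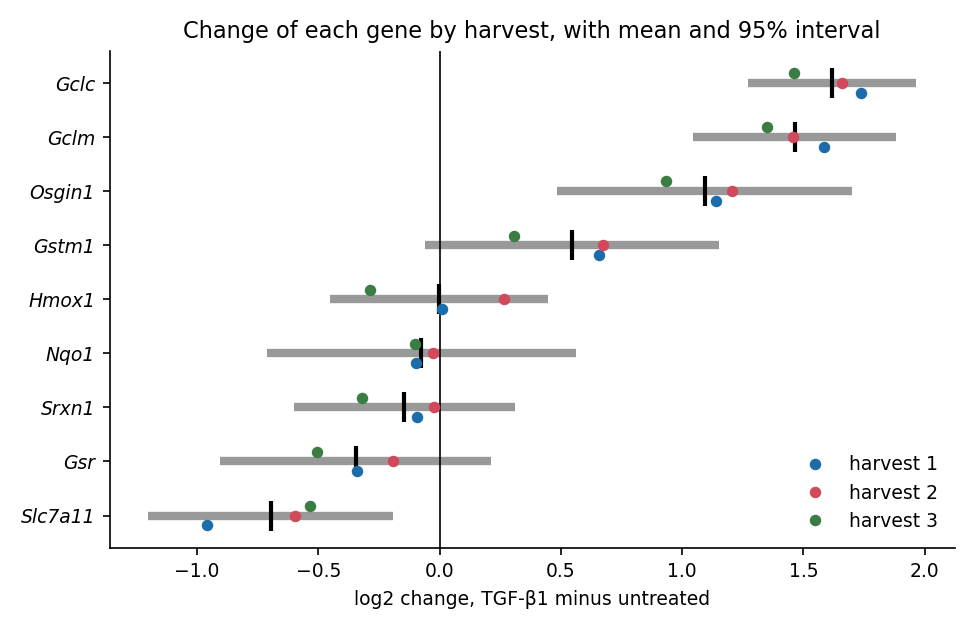
Log2 difference between TGF-β1-treated and untreated cells (horizontal axis) for each gene, with a point for each of the 3 harvests, a black tick for the mean and a grey bar for the 95% interval from limma. The bars of Gclc, Gclm and Osgin1 lie to the right of 0 and that of Slc7a11 to the left, and those of the other 5 genes include 0 in this fit without the replicate block.

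Across the 9 genes, 4 differences were positive and 5 negative, between -0.70 and 1.62, with a median of -0.00 beside -0.01 over all 29164 genes and transcripts. By pairs, on the brightest probe of each gene, 4 genes were higher in all 3 pairs (Gclc, Gclm, Osgin1, Gstm1). On the same probes 4 were lower in all 3 (Slc7a11, Gsr, Nqo1, Srxn1), and Hmox1 was mixed. Another Srxn1 probe was higher in pair 3. Of all genes and transcripts, 14.1% were higher and 20% lower in all 3 pairs. Groups did not overlap for 4 of the 9, beside 10.4% of all genes and transcripts. Past the threshold of an adjusted p of 0.05 (limma, Benjamini-Hochberg over all genes) were Gclc and Gclm, 2 of 9, where 0.254% of all genes and transcripts passed in either direction (66 higher and 8 lower). When the replicate number entered the model as a block, the SE of Osgin1 was 0.11 in place of 0.25 and it passed as well, 3 of 9 beside 0.672% of all. With any single array left out, or with normexp background correction, 0 of 9 passed, with Gclc then between 1.53 and 1.67 and Gclm between 1.35 and 1.57. Since the genes were selected on this contrast, nothing is read from these counts. Gclc stood at the 99.7th percentile of all differences, Gclm at the 99.6th, Osgin1 at the 99.2nd and Slc7a11 at the 1.07th.

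Further genes of the same redox pathways were collected in 7 lists of 137 genes in all, of which 128 were measured. With limma and Benjamini-Hochberg adjustment 0 of 128 passed without the replicate block and 0 with it, beside 0.254% and 0.672% of all genes and transcripts, shares that come to less than 1 gene in 128, so nothing about these pathways is read from the 0. At an unadjusted p under 0.05 there were 7 (5.47%) and 19 (14.8%), beside 5.77% and 10.9% of all. Their differences ran from -0.55 to 1.11 with a median of -0.03. Without overlap of the groups 8 were higher and 4 lower, beside 10.4% of all genes and transcripts in either direction. Nothing is read from this count.

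Of the 18 other genes of glutathione synthesis, supply and turnover, all measured, 0 passed the test in either direction, and the median difference was -0.07. Of these, 5 were higher and 6 lower in all 3 pairs, beside 14.1% and 20% of all genes and transcripts. Gss, the second enzyme of synthesis, had levels of 0.70, 0.53 and 0.69 without and of 0.71, 0.54 and 0.46 with TGF-β1. Its difference was -0.07 (SE 0.14, interval -0.40 to 0.26), beside 1.62 and 1.46 for the ligase subunits. Cth, which makes cysteine from cystathionine, gave -0.51 (SE 0.23; limma adjusted p = 0.926). It was read at a dim spot, with a mean level of -5.74, and its pair values of 0.06, -0.56 and -1.03 ran in both directions. Chac1, which degrades glutathione, gave -0.33 (SE 0.19). The greatest difference of this list belonged to Oplah, the 5-oxoprolinase that returns glutamate from glutathione breakdown, named after its values were seen. Its levels were -4.33, -3.85 and -4.17 without and -3.23, -3.09 and -3.12 with TGF-β1. The groups did not overlap, and the difference of 0.97 (SE 0.16) did not pass (limma adjusted p = 0.111, and 0.0695 with the replicate block).

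Among the 31 measured of 34 other glutathione-using enzymes 0 passed the test in either direction, with a median of 0.01. In all 3 pairs 4 were higher and 5 lower, beside 14.1% and 20% of all genes and transcripts. The peroxidase Gpx1 gave 0.06 (SE 0.22) and Gpx4, which reduces lipid peroxides, gave 0.10 (SE 0.16). In the thioredoxin and peroxiredoxin system (18 of 18 measured, 0 called, median -0.02), Txn1 gave 0.05 (SE 0.12), Prdx1 gave -0.15 (SE 0.20) and Txnip, an inhibitor of thioredoxin, gave -0.02 (SE 0.43). Txnrd1, a thioredoxin reductase that is itself a well-known NRF2 target, gave -0.25 (SE 0.23). All 6 arrays had Txn1 between 5.46 and 5.59. Sesn1, a sestrin named after its values were seen, was lower without overlap of the groups, at -0.47 (SE 0.16; limma adjusted p = 0.665). The other sestrins of this list, named in the same way, were higher without overlap. Sesn2 gave 0.68 (SE 0.21; limma adjusted p = 0.505) and Sesn3 gave 0.50 (SE 0.15; limma adjusted p = 0.482).

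NRF2 itself and its regulators (12 of 13 measured, 0 called, median 0.02) also stayed below the threshold. Nfe2l2 had levels of 3.82, 3.98 and 3.93 without and of 3.59, 3.73 and 3.87 with TGF-β1. Each pair was lower with TGF-β1, but treated replicate 3 lay above untreated replicate 1, and the difference was -0.18 (SE 0.14, interval -0.51 to 0.15). Keap1, which marks NRF2 for degradation, gave -0.11 (SE 0.22), and Bach1, a repressor at antioxidant response elements, gave 0.24 (SE 0.19). The arrays read transcripts, and NRF2 is governed largely through its protein, which was not measured.

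The 23 measured of 26 other NRF2 targets had 0 called and a median of -0.05. G6pdx, the entry enzyme of the pentose phosphate pathway, gave -0.15 (SE 0.32), and Fth1, the ferritin heavy chain, gave -0.05 (SE 0.22). Me1, the malic enzyme, gave 0.15 with an SE of 1.35, because its level followed the harvest and not the treatment. Of 12 genes of superoxide and peroxide handling 11 were measured and 0 were called (median -0.04). Sod2 gave -0.13 (SE 0.24), Cat gave -0.03 (SE 0.18) and Nox4, an oxidase subunit known as a TGF-β target in fibroblasts, gave -0.16 (SE 0.25). Ncf1, a subunit of the phagocyte oxidase named after its values were seen, gave 0.75 (SE 0.28; limma adjusted p = 0.751).

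The ATF4 and amino acid response, the other main route to Slc7a11, comprised 22 genes, of which 21 were measured, 0 were called and the median was -0.10. Atf4 gave -0.35 (SE 0.19), with levels of 3.15, 2.84 and 3.12 against 2.99, 2.64 and 2.42, lower in all 3 pairs. Ddit4 and Sesn2, stress-induced inhibitors of mTOR signalling named after their values were seen, gave 1.11 (SE 0.32; limma adjusted p = 0.45, and 0.068 with the replicate block) and 0.68 (SE 0.21; adjusted p = 0.505, and 0.0953 with the block). Both were higher in every pair. Ppp1r15a, a regulator of translation in this response that was chosen in the same way, was lower in every pair, with values of -0.77, -0.57 and -0.30, and gave -0.55 (SE 0.23). In all, 4 genes of this list were higher and 9 lower in all 3 pairs, beside 14.1% and 20% of all genes and transcripts. No difference between Gclc or Gclm and any of these genes was tested.

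**Figure D3:**
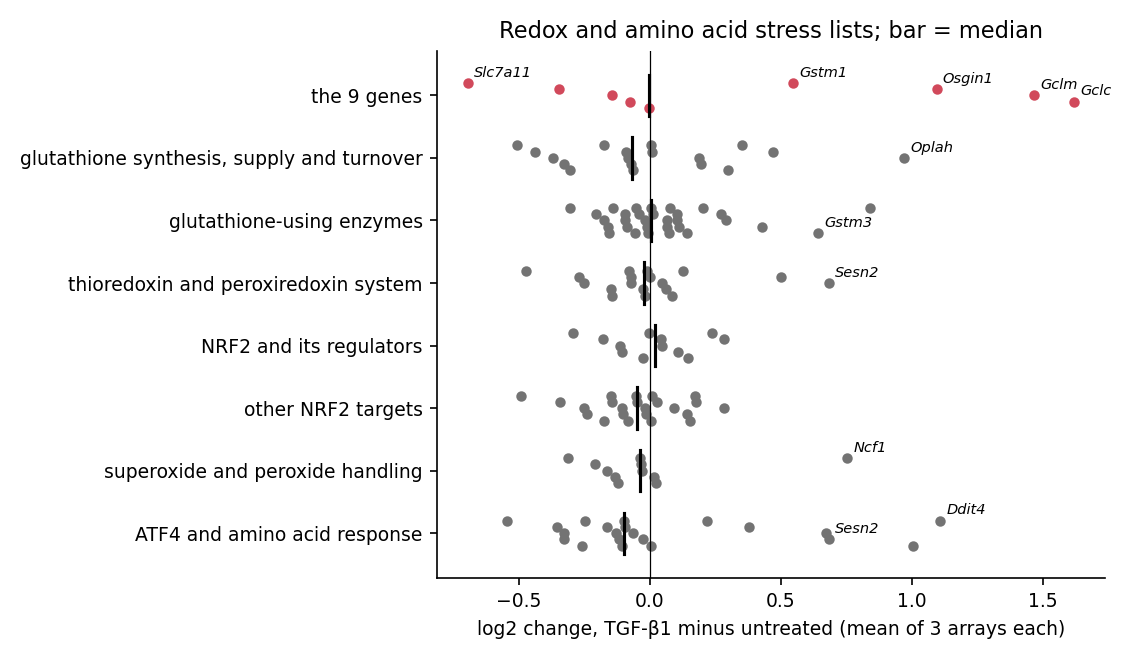
Log2 difference between treated and untreated cells (horizontal axis, mean of 3 arrays minus mean of 3 arrays) for the 9 genes, in red, and for each measured gene of the 7 redox and amino acid stress lists, in grey, with a black bar at each median. The medians of the 7 lists lie between -0.10 and 0.02, and no grey point lies beyond 1.11.

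The level of the 9 genes between harvests is a measure that their selection did not use. It was tested with the moderated F test of limma on the harvest, with treatment in the model, and 0 of 9 passed after Benjamini-Hochberg adjustment over all genes, beside 3.11% of all genes and transcripts (906). At an unadjusted p under 0.05 there were 4 of 9, beside 21.5% of all, and adjusted p values ran from 0.103 (Nqo1) to 0.497 (Gclc). Harvests 1 and 2 each lie on a single slide, so a difference between them cannot be told apart from the slide, while harvest 3 lies on both. Nqo1 had harvest means of -2.03, -2.51 and -2.77, Gstm1 of 6.37, 6.59 and 7.03, and Osgin1 of -0.13, -0.23 and 0.42. In these genes the highest and lowest harvests were 0.64 to 0.74 log2 units apart, which for Nqo1 and Gstm1 is more than their difference with treatment. The ligase subunits lay 0.23 (Gclc) and 0.39 (Gclm) apart between harvests, with means of 2.57, 2.34 and 2.45 and of 1.41, 1.03 and 1.28. The count of 906 became 8313 without untreated replicate 3, 6638 without treated replicate 3, 501 without treated replicate 2 and 458 without untreated replicate 2. Nqo1 passed without untreated replicate 3 (adjusted p = 0.0338) and, together with Osgin1 (0.0411), Gsr (0.0497) and Gstm1 (0.0362), without treated replicate 3, all by the limma F test.

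Some cell type markers differed between harvests, and their part in the levels above was not tested. Of the 8 blood progenitor markers 0 passed the harvest test. The log2 of the summed signal of 8 stromal fibroblast markers (Col1a1, Col1a2, Col3a1, Dcn, Lum, Sparc, Thy1 and Postn) was 4.56, 6.08 and 2.06 in untreated cells. In treated cells it was 4.74, 6.02 and 2.01, and all 8 markers were well above background on all arrays. It was highest in harvest 2 and lowest in harvest 3 in both groups, and 5 of the 8 passed the harvest test. Sums of granulocyte markers were 8.58 to 8.99 in untreated and 8.61 to 8.88 in treated cells (8 of 8 measured, 5 passing). Those of macrophage markers were 4.39 to 5.02 and 4.42 to 4.88 (7 of 8 on the array, 2 passing). Those of mast cell and megakaryocyte markers were 5.42 to 6.64 and 5.17 to 6.54 (8 of 8, 3 passing). Erythroid markers summed to 0.69 to 2.50 and 0.74 to 2.23 (6 of 8 tested, 1 passing). In each of these lists 0 markers passed the treatment test, and the ranges of treated and untreated cells overlapped. A sum can hide differences of single markers between harvests, as in these genes named after their values were seen. In untreated harvests 1, 2 and 3 Mpo was 8.48, 8.46 and 8.60, close to the granulocyte sum, while S100a8 was 1.51, 3.12 and 4.89. Of the macrophage markers, Csf1r was 1.83, 1.74 and 3.07 and Mrc1 was 0.63, -0.23 and -1.81.

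Among the 128 wider redox genes 8 passed the harvest test, beside 3.11% of all genes and transcripts. They are named here after their values were seen: Me1 (adjusted p = 0.00146), Pir (0.00379), Cybb (0.00514), Gpx8 (0.00555), Gstm2 (0.00674), Akr1b8 (0.0104), Vldlr (0.0264) and Gsta4 (0.0274), all by the limma F test. Me1 had harvest means of -3.83, -2.28 and -6.45, and Gpx8, a peroxidase of the endoplasmic reticulum, of -1.81, -0.13 and -3.51. The Me1 probe was not well above background on 1 of the 6 arrays, untreated replicate 3, so its mean in harvest 3 rests in part on a value with no more than a bound. In 7 of the 8 the order was that of the fibroblast markers, harvest 2 above 1 above 3, although for Gsta4 harvests 1 and 2 were tied at -0.63 and -0.62. The exception was Cybb, a phagocyte oxidase subunit, at 0.67, 0.36 and 2.50. That order was found in 611 of all 906 genes and transcripts that passed the harvest test, in 3836 of all 29164, and in 0 of the 9 genes. With so few genes nothing is read from this 0.

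**Figure D4:**
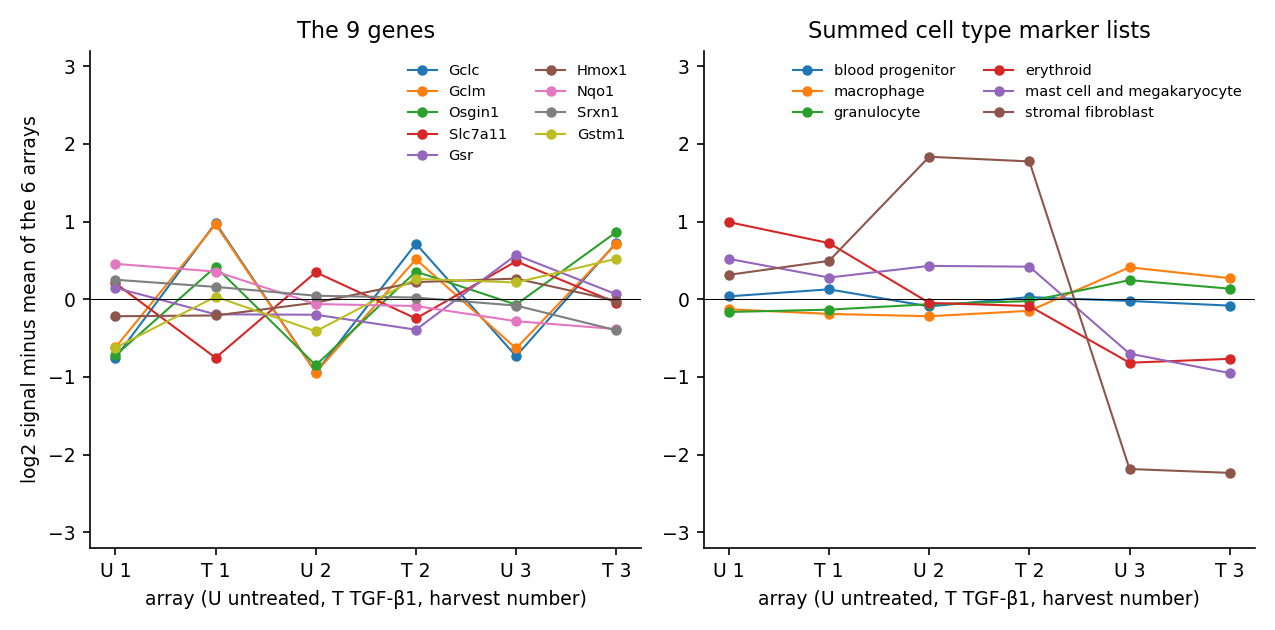
Log2 signal minus the mean of the 6 arrays (vertical axis) for the 9 genes (left) and for the summed marker lists of 6 cell types (right), with arrays ordered as untreated (U) and treated (T) within harvests 1, 2 and 3. Gclc and Gclm alternate between U and T, whereas the fibroblast sum is highest on both arrays of harvest 2 and lowest on both arrays of harvest 3.

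By Pearson correlation over the 6 arrays, given as a description because these share their 2 treatment groups and 3 harvests, the gene most like Gclc was Itpka (r = 0.9978, difference 1.63), and that most like Gclm was Endod1 (r = 0.9963, difference 1.44). For Osgin1 it was Dgkg (r = 0.9999), for Slc7a11 Zeb2 (r = 0.9953, difference -1.21), for Gsr Abhd2 (r = 0.9961) and for Hmox1 Ndufv3 (r = 0.9595). Nqo1 was most like Por (r = 0.9977), which encodes the P450 reductase, Srxn1 most like Trim16 (r = 0.9951) and Gstm1 most like its relative Gstm3 (r = 0.9966). Each is the highest among the measured genes with a symbol (15638 in all) other than the genes followed here, over few arrays.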

How the data were processed

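Cy3-labelled total RNA of 6 cultures was read on 1-colour Agilent arrays (design 014868). Per the file headers, the authors' scanner files give processed spot intensity from Feature Extraction 10.1.1.1, after background subtraction and spatial detrending but with no scaling across arrays. The flags per spot (other values, 0 or 1) for outliers, saturation and signal above background are as deposited. The authors' deposited matrix of log2 values followed log2 of the median spot signal (r between 0.99951 and 0.99989; column medians 7.385 to 7.421; 12 rows with an empty value). Quantile normalisation of these columns was not tested. Limma is named in the submitters' processing notes, with neither version nor settings given in the sources used here.

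Here, log2 of the processed signal minus the 75th percentile of the array was used, spots of a probe being averaged without outlier spots (43 to 101 per array, 0 saturated). A probe entered if well above background on at least 3 arrays (36345 of 41174) with a value on all. Probes were named by unversioned RefSeq accession through the table of assembly GRCm38.p6: 23374 had a symbol (16535 symbols) and 17800 had none. The brightest passing probe stood for a gene, which gave 29164 genes and transcripts. Tests used lmFit and eBayes of limma 3.58.1 (R 4.3.3) with Benjamini-Hochberg adjustment and a threshold of 0.05, and were checked on simulated data. The treatment test rests on the spread between 3 arrays a group, and the harvest test on the spread left between the 2 arrays of a harvest. Same-numbered arrays deviated together (r = 0.636, 0.786 and 0.557 for pairs 1, 2 and 3; -0.736 to 0.0713 for other combinations), so the numbers are taken as pairing, and the median residual SD was 0.241 without and 0.157 with the replicate block.

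The 9 genes, the lists and the tests were chosen with earlier results of these data known. By rule the text names the 9 genes, any list gene past the threshold (up to 5 a list), 20 well-known list genes (Nfe2l2, Keap1, Bach1, Gss, Slc3a2, Cth, Gpx1, Gpx4, Txn1, Txnrd1, Prdx1, Txnip, G6pdx, Me1, Fth1, Sod2, Cat, Nox4, Atf4 and Chac1) and the most similar gene of each of the 9. Other list genes, such as Oplah and Sesn1, fall outside this rule and were named after their values were seen. Alternatives were a replicate or slide block, normexp (offset 50, on median spot signals because mean signals are not used here), quantile normalisation, the authors' matrix, other filters and probe rules, array weights and leaving out each array.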

Additional observations from a re-analysis of the deposited data

How the results depend on the processing

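The median difference of the 9 genes was -0.004 and moved to 0.215 with array weights, while leaving out 1 array gave -0.051 to 0.134. Genes passing the treatment test numbered 74, against 196 with the replicate block (73 of them shared), 5 with normexp, 174 with the authors' matrix, 671 with array weights and 7 to 24 with 1 array left out. The harvest test gave 906, against 15940 with normexp, 1689 with the authors' matrix and 458 to 8313 with 1 array left out (8313 without untreated replicate 3, 6638 without treated replicate 3, 501 without treated replicate 2, 458 without untreated replicate 2). The cause was not tested. Normexp moved the median of all differences to -0.165 from -0.006.

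Gclc and Gclm kept their direction under all 16 settings, from 1.501 to 1.698 and from 1.222 to 1.575. Gclc no longer passed with normexp (1.65) or with any array left out (1.53 to 1.67). Gclm no longer passed with normexp (1.43), with any array left out (1.35 to 1.57) or without a filter on dim probes. Osgin1, Slc7a11, Gsr and Gstm1 also kept their direction in all 16, and Osgin1 passed only with the replicate block. In the harvest test Osgin1 and Nqo1 passed under 3 of 13 settings, Gstm1 under 2, Slc7a11, Gsr, Hmox1 and Srxn1 under 1, and Gclc and Gclm under 0. Normexp on median signals and the pairs of replicates 1 and 2 alone were added after seeing the data.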
